A study of Mus musculus with 2 samples.

Results

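Mitochondrial ribosomal proteins were taken as the probe sets with exactly 1 gene symbol beginning with Mrpl or Mrps followed by a digit. This gave 127 of the 22690 probe sets on the array, for 74 genes: 47 named for the large subunit, with 88 probe sets, and 27 named for the small subunit, with 39. The measured RNA came from splenic CD4+ T cells, sorted magnetically 7 days after the mice received glucose-6-phosphate isomerase (GPI) as the arthritis antigen. It was hybridised to 1 array for DBA/1 mice, which are susceptible to this arthritis, and 1 for C57BL/6 mice, which are resistant. Both strains were immunised, no unimmunised sample was used here, and how many mice each RNA came from is not stated in the labels. With 1 array per strain, no difference below has a replicate check, a test or a p-value.

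The mitochondrial ribosome makes the few proteins that mitochondrial DNA encodes, all of them core subunits of the respiratory chain and ATP synthase. Its RNAs come from mitochondrial DNA, but all of its proteins are encoded in the nucleus, made in the cytosol and imported. Proteins named MRPL belong to the large subunit, which forms peptide bonds. Those named MRPS, with exceptions given below, belong to the small subunit, which reads the messenger RNA. T cells build more of this machinery when they leave quiescence after activation.

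The labelled cell type was checked first. The CD4 T cell list (Cd4, Cd3e, Cd3d, Cd3g, Cd28, Lat) was over the floor on both arrays for all 6 measured genes, with a median log2 ratio, DBA/1 over C57BL/6, of -0.06. The floor, an array's median over all probe sets, was 37.6 in DBA/1 and 38.04 in C57BL/6. Markers of other cells were also measured and differed between the arrays. All 13 measured neutrophil genes were brighter in DBA/1, at a median ratio of 1.79 (log2) and summed signals of 35838 and 11176, and none of them was under the floor on both arrays. All 12 monocyte and macrophage genes were higher, with a median of 0.88 and sums of 6909 and 3068, though Cd14 (69.2 and 24.5) was over the floor in DBA/1 only. The 7 B cell genes over the floor on at least 1 array were higher, with a median of 1.12 and sums of 1601 and 694, while Pax5 lay under the floor on both arrays. Among the 7, Blk (108 and 30.3) and Fcer2a (82.9 and 29.1) were over the floor in DBA/1 only. The filter thus fixed the direction of both, and the median is the ratio of Fcer2a. All 5 CD8 T cell genes were lower, with a median of -1.06 and sums of 382 and 995, though Cd8b1 (16.1 and 199) was over the floor in C57BL/6 only. Among proliferation genes, 16 of 19 usable were higher, with a median of 0.47, sums of 11593 and 8593, and Tyms under the floor on both arrays. The 5 usable erythroid genes had a median of -0.14, with sums of 1901 and 1845 and Hba-a1 under the floor. These lists moved beside the results that follow, and their part in them was not tested. In such mixed RNA, fewer cells of a type and less RNA per cell cannot be told apart.

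Upstream DNA is shown first, because the nuclear genes of this family have no common locus and are known to be served by shared promoter elements. RefSeq promoters of GRCm38.p6, from 250 bases before to 50 after each start, matched 65 of the 74 genes. They were searched on both strands for the palindrome of nuclear respiratory factor 1 (GCGC, any 2 bases, GCGC), for an ETS core as bound by GABPA, CCGGAAG, and for a YY1 core, AAGATGGCG. No motif is contained in another, but the end of the ETS core can also be the start of the YY1 core. At least 1 of the 3 was present in 39 of the 65 promoters. The following sequences are the 120 bases upstream of the start, 5′ to 3′ on the gene's strand, with any match in capitals. Mrpl32, Mrpl17 and Mrpl12 show the NRF1 palindrome and Mrpl3 and Mrpl52 the ETS core. Mrps14 and Mrpl35, which lay at the top of the small subunit and at the bottom of the whole family by ratio, show no match in this stretch, although Mrpl35 holds a YY1 core elsewhere in its searched promoter.
Mrpl32 (GRCm38.p6, chr13:14613038-14613157, minus strand): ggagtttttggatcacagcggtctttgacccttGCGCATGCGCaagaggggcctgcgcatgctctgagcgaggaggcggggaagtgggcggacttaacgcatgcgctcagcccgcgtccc
Mrpl17 (GRCm38.p6, chr7:105811088-105811207, minus strand): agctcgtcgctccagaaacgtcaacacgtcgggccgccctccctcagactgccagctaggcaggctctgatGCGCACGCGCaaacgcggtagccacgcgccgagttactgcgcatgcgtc
Mrpl12 (GRCm38.p6, chr11:120484517-120484636, plus strand): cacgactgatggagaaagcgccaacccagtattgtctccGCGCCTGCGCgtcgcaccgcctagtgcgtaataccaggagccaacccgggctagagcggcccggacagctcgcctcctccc
Mrpl3 (GRCm38.p6, chr9:105053148-105053267, plus strand): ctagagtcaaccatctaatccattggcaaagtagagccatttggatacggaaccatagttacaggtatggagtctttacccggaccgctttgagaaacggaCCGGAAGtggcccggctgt
Mrpl52 (GRCm38.p6, chr14:54426789-54426908, plus strand): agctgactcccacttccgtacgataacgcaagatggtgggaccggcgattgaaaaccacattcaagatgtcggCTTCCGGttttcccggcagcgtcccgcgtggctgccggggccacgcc
Mrps14 (GRCm38.p6, chr1:160195095-160195214, plus strand): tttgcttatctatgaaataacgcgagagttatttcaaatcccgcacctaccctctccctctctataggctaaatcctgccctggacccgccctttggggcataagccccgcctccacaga
Mrpl35 (GRCm38.p6, chr6:71823785-71823904, minus strand): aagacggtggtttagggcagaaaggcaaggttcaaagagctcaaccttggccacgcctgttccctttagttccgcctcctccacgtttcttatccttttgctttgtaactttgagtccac

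The NRF1 palindrome was present in 13 of the 65 promoters (20.0%), against 17.2% of 5698 genes over the floor and 9.61% of 17492 protein-coding genes. The ETS core was in 24 (36.9%), against 23.8% of genes over the floor and 12.9% of all. The YY1 core was in 7 (10.8%), against 4.32% and 2.14%. By subunit, the palindrome was in 10 of 41 large and 3 of 24 small subunit promoters, and the ETS core in 14 of 41 and 10 of 24. The strain ratio was set beside these matches. Genes with the ETS core had a median log2 ratio of 0.39 and those without it 0.27. For the NRF1 palindrome the medians were 0.28 with and 0.35 without, and for the YY1 core 0.15 with and 0.33 without. A match is a description of letters, and genes are not replicates, so these medians have no test.

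Most mitochondrial ribosomal protein genes gave a slightly brighter signal in DBA/1. Each gene is represented by its brightest probe set, and all 74 were over the floor on both arrays. In DBA/1, 63 of 74 were higher, against 60.6% of the 6936 genes over the floor on at least 1 array. The median log2 ratio was 0.29, a 1.22-fold difference, with quartiles of 0.10 and 0.49, while the median over all 6936 genes was 0.10. The deposited arrays differ by about that amount overall. With the ratios centred on the median gene, 54 of 74 were higher, against 49.7% of all genes, and the family's median was 0.18. After quantile normalization 55 were higher, against 52.2%, and after lowess 55, against 52.4%, with a median of 0.18 on both scales. The shift of the family over the median gene was 0.19 as deposited, 0.16 after quantile normalization and 0.15 after lowess.

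**Figure D1:**
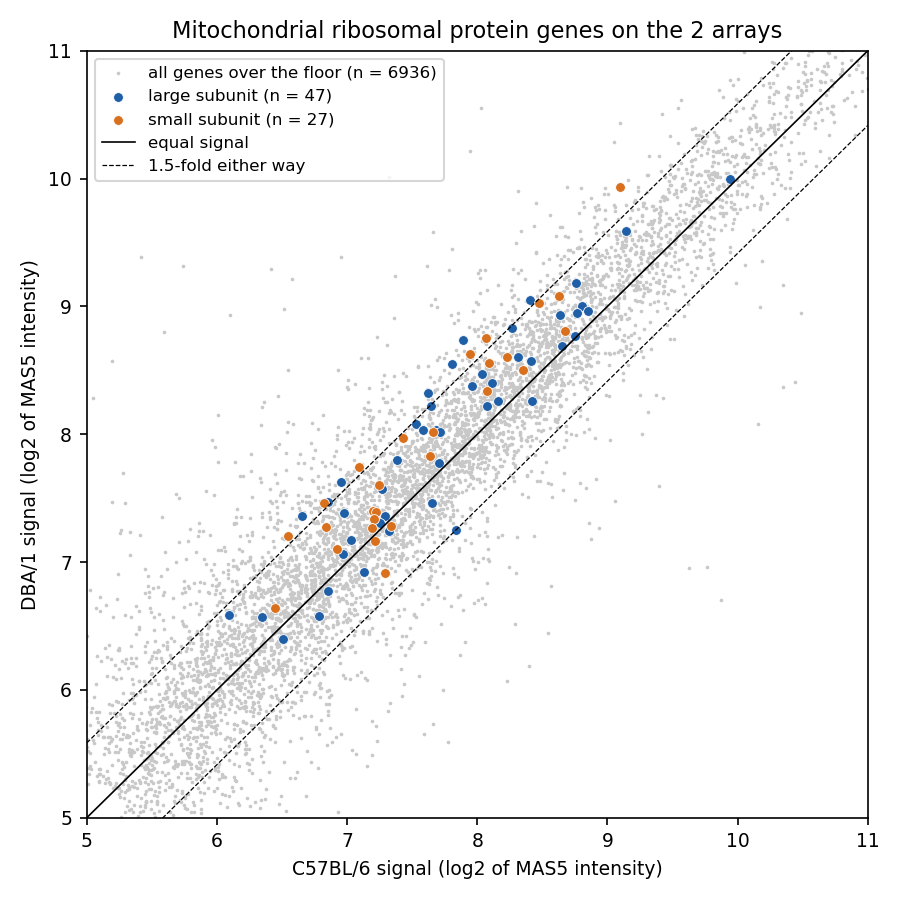
Log2 MAS5 signal of each gene in DBA/1 (vertical) against C57BL/6 (horizontal), 1 array each: all genes over the floor in grey, large subunit genes in blue and small subunit genes in orange, with lines for equal signal and for 1.5-fold either way. Most coloured points sit between the line of equal signal and the upper 1.5-fold line; 63 of 74 are above equality. The axes end at 11, so brighter genes of the background are not drawn.

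The differences were small in size. At least 1.5-fold higher in DBA/1 were 13 genes, 17.6% of the family, against 11.8% of all genes; no gene was at least 1.5-fold higher in C57BL/6, against 5.97%. None reached 2-fold in either direction, against 3.84% and 1.9%. The 1.5-fold count depended on scaling: it was 5 higher and 1 lower with median centring (8.72% and 8.22% of all genes), 7 and 1 after quantile normalization (9.76% and 7.24%) and 6 and 1 after lowess (9.80% and 7.15%). On those scales the family's share past 1.5-fold in DBA/1 was below that of all genes. How far 2 probe sets of 1 gene differ was used as a gauge of error, although 2 probe sets can also bind different transcripts. In 19 member genes with such a pair measured on both arrays, the log2 ratios differed with an SD of 0.34, or 0.24 per probe set. Over 2325 such genes of the array it was 0.31 per probe set. The SD is taken around the mean of these differences, brightest minus second probe set. It therefore leaves out any shift that the brightest probe sets share. With all usable probe sets of a gene averaged, the family's median fell to 0.20, against 0.08 for all genes. This spread covers differences between probe sets only, not mice, sorts or labelling.

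Small subunit genes had a somewhat higher median than large subunit genes. Of 47 large subunit genes 39 were higher in DBA/1 and 7 of them 1.5-fold or more; their log2 ratios had a median of 0.28 and quartiles of 0.06 and 0.45. Of 27 small subunit genes 24 (88.9%) were higher and 6 (22.2%) at least 1.5-fold, with a median of 0.35 and quartiles of 0.16 and 0.55. The large minus small difference of -0.07 was -0.01 when all usable probe sets of a gene were averaged, and 0.01 when probe sets that can bind more than 1 transcript were left out, so its direction is not settled. Symbols and known structure disagree for 3 genes: the products of Mrps18a and Mrps30 sit in the large subunit, and that of Mrps36 is now known as a component of the 2-oxoglutarate dehydrogenase complex. With those 2 moved and Mrps36 left out, the medians were 0.23 for 49 large and 0.36 for 24 small subunit genes, a difference of -0.13.

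**Figure D2:**
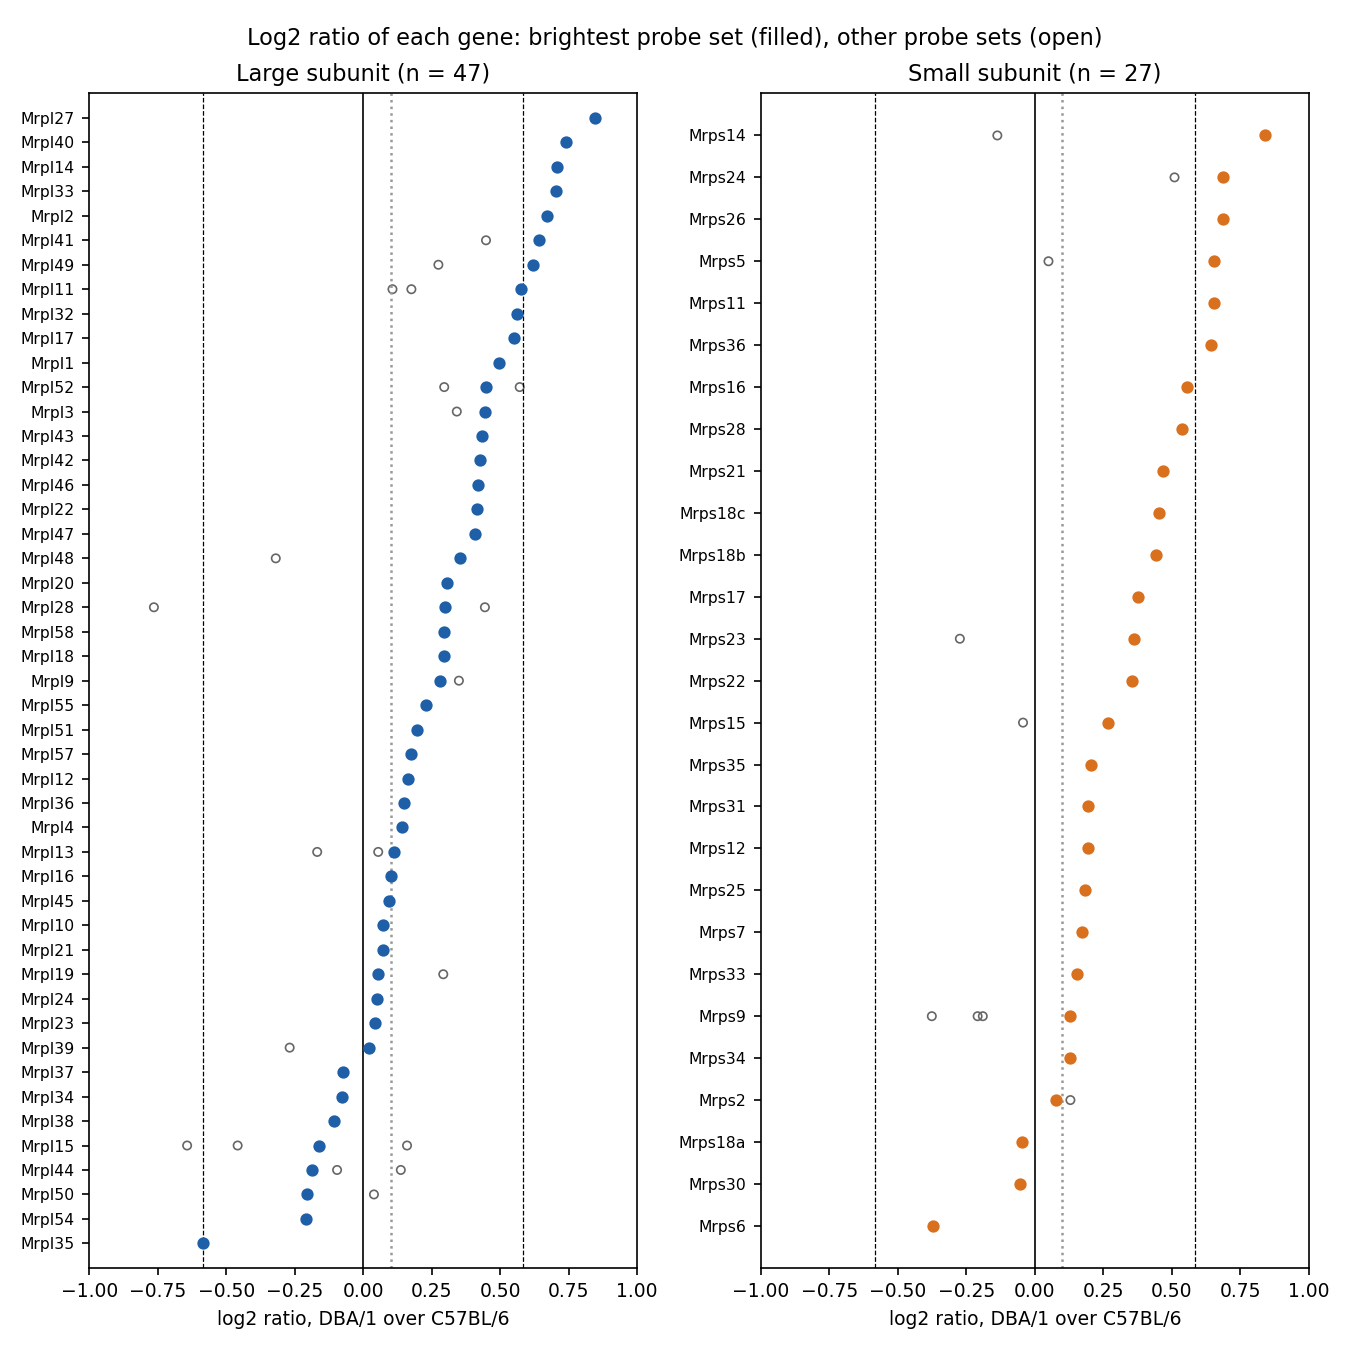
Log2 ratio, DBA/1 over C57BL/6, of each large (left, blue) and small (right, orange) subunit gene; filled points are the brightest probe set and open points other probe sets over the floor on at least 1 array. The solid line is 0, the dashed lines are 1.5-fold and the dotted line is the median of all genes, 0.10. The filled points run from -0.58 for Mrpl35 to 0.85 for Mrpl27, and several open points lie far from their filled point, as for Mrps14 and Mrpl28.

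The highest member by ratio was a large subunit gene with a bacterial counterpart. Mrpl27, whose bacterial counterpart reaches towards the peptidyl transferase centre, read 426 in DBA/1 and 237 in C57BL/6, a log2 ratio of 0.85 and a 1.80-fold difference. Mrpl2, a core protein of that centre, read 198 and 124 (0.67). Mrpl3, another core protein, read 262 and 192 (0.45), and its second usable probe set gave 0.34. Mrpl16 and Mrpl4, also of the set with bacterial counterparts, were near the 0.10 of all genes, at 306 and 286 (0.10) and at 298 and 270 (0.14). Mrpl14, which lies at the interface between the subunits, read 165 and 101 (0.71), and Mrpl33 read 321 and 197 (0.71). Mrpl32, a protein known to be matured by the m-AAA protease of the inner membrane before it joins the ribosome, read 456 and 309 (0.56).

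The stalk recruits translation factors. Mrpl12, the stalk protein itself, read 381 in DBA/1 and 340 in C57BL/6 (0.16). Mrpl10, which anchors it, read 219 and 209 (0.07) and was below 0 after each of the 3 rescalings (-0.03 with median centring). Mrpl11, at the base of the stalk, read 298 and 200 (0.58), just under 1.5-fold, but its other usable probe sets gave 0.11 and 0.18. Around the exit of the peptide tunnel, Mrpl24 read 1019 and 985 (0.05), Mrpl23 414 and 402 (0.04), and Mrpl45, which ties the ribosome to the inner membrane, 134 and 125 (0.10). Mrpl22 read 332 and 249 (0.42) and Mrpl47 167 and 126 (0.41). The tunnel exit thus held genes near 0 beside genes well above it.

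Among large subunit proteins found only in mitochondrial ribosomes, ratios were also mixed. Mrpl40, whose human gene lies in the 22q11 deletion region, read 374 in DBA/1 and 224 in C57BL/6 (0.74). Mrpl41 read 529 and 339 (0.64), with a second probe set at 0.45. Mrpl49 read 178 and 116 (0.62), with a second at 0.27. These were the 3 members of this class past 1.5-fold. Mrpl52 was measured by 3 usable probe sets, all higher in DBA/1: the brightest read 772 and 566 (0.45) and the others gave 0.57 and 0.30. Mrpl42 read 581 and 432 (0.43). Mrpl58, a peptidyl-tRNA hydrolase that frees stalled ribosomes, read 489 and 398 (0.30).

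The large subunit genes that were brighter in C57BL/6 numbered 8, and most lay close to 0. Mrpl35, which has a bacterial counterpart, read 152 in DBA/1 and 228 in C57BL/6, a log2 ratio of -0.58 that fell just short of 1.5-fold, and its second probe set was under the floor on both arrays. Mrpl54 read 121 and 140 (-0.21), Mrpl50 95.6 and 110 (-0.21), and Mrpl44, which carries a ribonuclease III fold, 176 and 201 (-0.19). Mrpl38 read 84.5 and 90.9 (-0.10) and Mrpl34 152 and 160 (-0.08). Apart from Mrpl35, none of the 8 passed -0.21 in its brightest probe set.

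In the small subunit, Mrps14, of the head that holds the transfer RNAs, read 980 in DBA/1 and 547 in C57BL/6, a log2 ratio of 0.84 and a 1.79-fold difference. Its second probe set, dim at 43.6 and 47.9, gave -0.14. Mrps24, the counterpart of a bacterial protein at the messenger RNA entry, read 432 and 268 (0.69), and its second probe set 309 and 217 (0.51); both belong to the kind that can bind related transcripts. Mrps5, also at the entry, read 215 and 136 (0.65), with a dimmer probe set at 0.05. Mrps11, of the platform, read 147 and 93.6 (0.65).

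The decoding protein was not among the larger differences. Mrps12, at the decoding centre, read 228 and 199 (0.19). Mrps16, of the body, mutated in an inherited respiratory chain disorder, read 522 and 355 (0.56). Mrps22, a mitochondria-specific protein mutated in a similar disorder, read 194 and 152 (0.35), and Mrps26, also mitochondria-specific, 396 and 246 (0.69). Mrps36 read 177 and 113 (0.64). Only 3 small subunit genes were brighter in C57BL/6 in the brightest probe set. Mrps6 read 121 and 156 (-0.37), while Mrps30 and Mrps18a, both placed in the large subunit by structure, read 156 and 162 (-0.05) and 144 and 149 (-0.05).

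Split by evolutionary class, 14 of 15 small subunit genes with a bacterial counterpart were higher in DBA/1 (median log2 ratio 0.45). All 9 small subunit genes classed as without one were higher, with a median of 0.21 and a range from 0.13 to 0.69. Mrps18b was put in that class and Mrps18a in the matching large subunit class, although both belong to the family of the bacterial S18 protein. In the large subunit, 26 of 29 with a counterpart were higher (median 0.28), and 13 of 20, or 65.0%, classed as without one (median 0.19, Mrps18a and Mrps30 included). Over all 6936 genes 60.6% were higher and the median was 0.10, so the share of the last class lay near that of all genes. The quartiles of the classes overlapped, running from 0.18 to 0.60 and from 0.18 to 0.36 for the small subunit classes and from 0.07 to 0.49 and from -0.06 to 0.43 for the large.

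Probe sets of 1 gene did not always give the same direction. Of 21 member genes with more than 1 usable probe set, 11 had probe sets on both sides of 0 and 7 had a spread over 0.5 on the log2 scale, 12 in either way. Mrpl28 had the widest spread: its 3 probe sets read 190 and 154 (0.30), 192 and 141 (0.44) and 77.9 and 132 (-0.76). Mrpl15 had 4 usable probe sets of 7, with ratios from -0.64 to 0.16 and a brightest reading of 307 and 343 (-0.16). Mrpl48 read 263 and 205 (0.35) with a second at -0.32, and Mrps23 259 and 202 (0.36) with a second at -0.27. Mrps9 had 4 usable probe sets, from -0.38 to 0.13, of which only the brightest, at 162 and 148, was above 0.

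The other genes with probe sets on both sides of 0 had narrower spreads. Mrpl13 ran from -0.17 to 0.11, Mrpl39 from -0.27 to 0.02, Mrpl44 from -0.19 to 0.14, Mrpl50 from -0.21 to 0.04 and Mrps15 from -0.04 to 0.27. Taking every usable probe set on its own, 80 of 104 were higher in DBA/1, against 58.0% of all probe sets so treated. Their median was 0.20, against 0.07. Without the 11 genes of mixed sign the family's median was 0.30.

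A few members are neighbours of another gene of mitochondrial biology. Mrps11 and Mrpl46 lie head to head in RefSeq, within less than 120 bases, 1 from each subunit. Both were higher in DBA/1: Mrps11 at 0.65 as above, and Mrpl46, a mitochondria-specific large subunit protein, at 223 and 167 (0.42).

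The 6 lists of other genes, which span mitochondrial translation, mitochondrial DNA and biogenesis regulators, had a lower median when pooled. The pool includes 8 usable biogenesis regulators, all lower in DBA/1, with a median of -0.17. By list, ribosomal proteins with other names (0.15) and tRNA synthetases with an amidotransferase (0.14) had medians above the 0.10 of all genes. Of 80 listed genes 56 were measured and 52 were usable; 25 were higher in DBA/1, 1 at least 1.5-fold higher and 1 at least 1.5-fold lower, with a median log2 ratio of -0.02. Ribosomal proteins that bear other names had a median of 0.15 over 4 genes: Chchd1 read 550 and 399 (0.46), Gadd45gip1 131 and 170 (-0.38). Translation factors had a median of 0.04 over 7, with the initiation factor Mtif2 at 171 and 248 (-0.54) and the membrane insertase Oxa1l at 138 and 105 (0.39). Assembly and ribosomal RNA genes had a median of -0.05 over 16. Among them Ngrn, needed for the large subunit's RNA, read 245 and 146 (0.74), and Mettl17 236 and 178 (0.41). The list of mitochondrial aminoacyl-tRNA synthetases, which charge transfer RNAs, had a median of 0.14 over 9. It was led by Pars2 at 61.3 and 48.8 (0.33) and Fars2 at 95.1 and 77.3 (0.30). These 9 include Gatc (0.002) and Qrsl1 (0.14), which encode subunits of an amidotransferase and not synthetases, so the median is not of synthetases alone.

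Genes that maintain and transcribe mitochondrial DNA had a median of 0.08 over 8. Their extremes were a known pair: Lrpprc and Slirp, whose products form 1 complex that stabilises mitochondrial messenger RNAs, differed in opposite directions. Lrpprc read 81.1 in DBA/1 and 131 in C57BL/6 (-0.70), and Slirp 413 and 283 (0.55). The regulators of mitochondrial biogenesis were all slightly lower in DBA/1 as deposited, 8 of 8 usable, with a median of -0.17. Nrf1, which encodes the factor of the palindrome above, read 130 and 176 (-0.43), and the coactivator gene Pprc1 167 and 213 (-0.35). Ppargc1a was under the floor on both arrays. None of the 8 reached 1.5-fold.

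**Figure D3:**
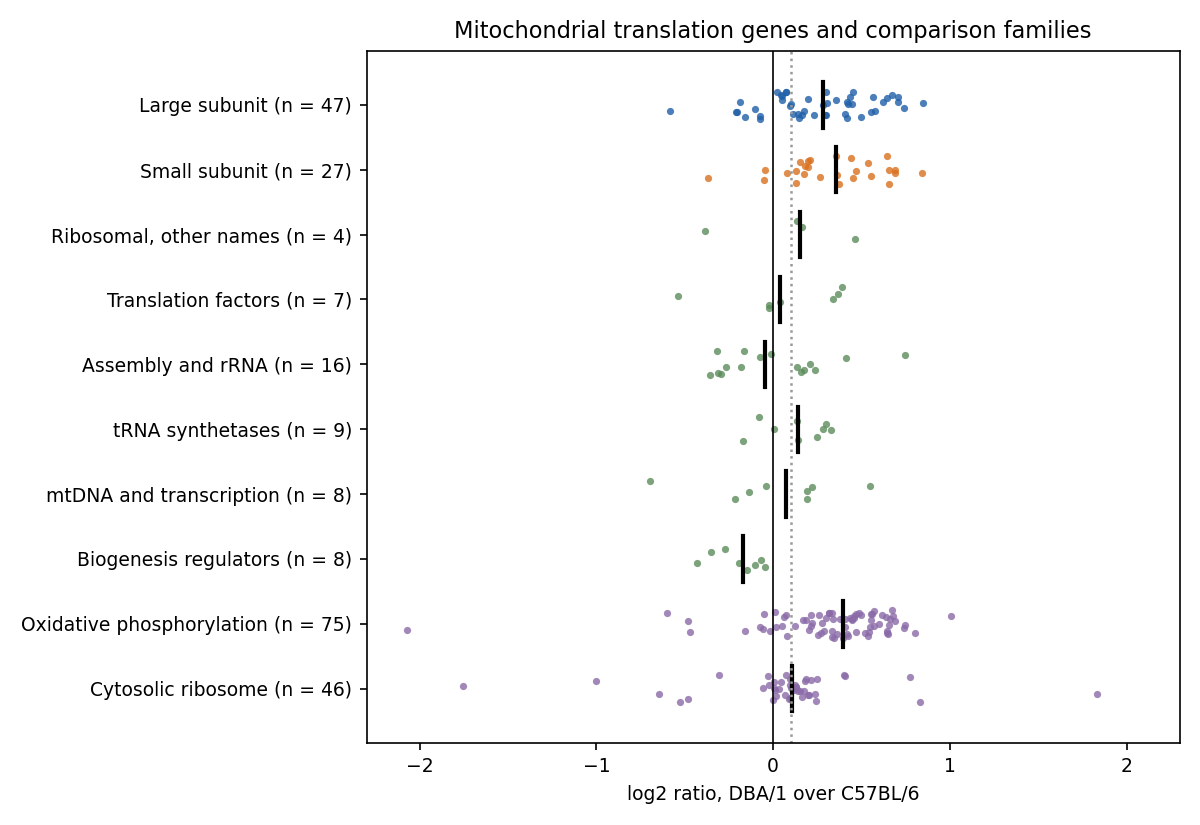
Log2 ratio, DBA/1 over C57BL/6, of every usable gene (points, spread vertically for visibility). Shown are the 2 mitochondrial ribosome subunits, 6 lists of other genes of mitochondrial translation, DNA and biogenesis, and 2 comparison families. Black bars are medians, the solid line is 0 and the dotted line is the median of all genes. The bars of the large and small subunits, 0.28 and 0.35, lie right of the dotted line, and that of the biogenesis regulators, -0.17, left of it.

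Both families most like this one were set beside it. Oxidative phosphorylation genes had a median log2 ratio of 0.39 over 75 genes. Their complexes contain the products of the mitochondrial ribosome, except for the complex of the listed Sdh genes. Of the 75 genes, 66 (88.0%) were higher in DBA/1, against 60.6% of all genes. Past 1.5-fold were 15 of these genes (20.0%) in DBA/1 and 2 in C57BL/6, against 11.8% and 5.97% of all genes. Cytosolic ribosomal protein genes had a median of 0.11 over 46, close to the 0.10 of all genes. Of them, 37 (80.4%) were higher, 3 (6.52%) at least 1.5-fold higher and 3 at least 1.5-fold lower. Mitochondrial ribosomal protein genes lay between them at 0.29. With quantile normalization the medians were 0.23, -0.02 and 0.18, and after lowess 0.25, -0.02 and 0.18, so the order of the 3 was kept on these scales. No test of these differences is possible with 1 array per strain.

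**Figure D4:**
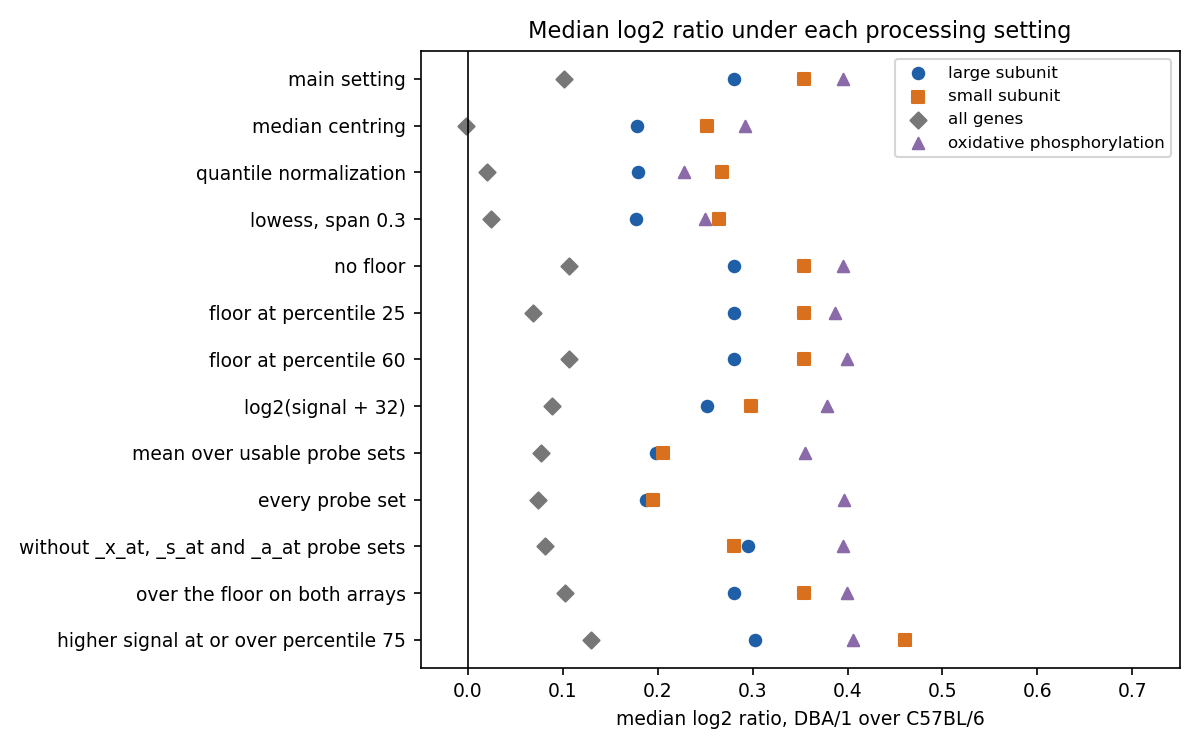
Median log2 ratio, DBA/1 over C57BL/6, of large subunit genes (blue circles), small subunit genes (orange squares), oxidative phosphorylation genes (purple triangles) and all genes (grey diamonds), with 1 line for each processing setting. The 2 subunit medians are right of the median of all genes in each setting drawn, while their own order turns without _x_at, _s_at and _a_at probe sets, at 0.29 for the large and 0.28 for the small subunit.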

How the data were processed

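RNA of splenic CD4+ T cells of 2 mouse strains was measured on 1 array each, from 3 µg of total RNA per the labels' protocols. The authors deposited probe set intensities on a linear scale. The submitters' processing notes name MAS5; the sources used here give no version, scaling target, detection call or genome build. The number of arrays limits the precision.

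Of 22690 probe sets, 64 are controls; the platform annotation gave 1 symbol to 20380, several to 691 and none to 1555. Entrez identifiers of all 127 member probe sets matched a RefSeq table of GRCm38.p6. Mrpl30, Mrpl53, Mrps10 and Mrps27 have no such probe set and were not analysed here. Of several probe sets, the one brightest on average (log2) stood for a gene. Signals under an array's median were set to it. The log2 ratio is DBA/1 over C57BL/6, on values as deposited, and genes over the floor on at least 1 array (6936 of 12393) were usable. Genes were counted at 1.5-fold and 2-fold. The script was tested on simulated data. Versions were Python 3.11.15, pandas 2.3.3 and statsmodels 0.14.6.

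Members and lists were chosen with earlier results of these data known. Named by rule were the 8 highest and 8 lowest ratios, genes at least 1.5-fold apart, the 5 brightest, genes whose probe sets differed in sign or by over 0.5, 8 genes for their roles, and the 2 largest ratios of each other list; further members were named for their roles. The evolutionary classes, the structural subunits and the promoter motifs were chosen after the values were seen. Alternatives were 3 scalings, 3 other floors or none, log2(signal + 32), 3 other choices of probe set and 2 stricter filters.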

Additional observations from a re-analysis of the deposited data

How the results depend on the processing

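Medians were taken as moved when they changed by over 0.1 (log2), and counts when they changed by over 1.5 times. The family's median of 0.29 was 0.18 with median centring, 0.18 with quantile normalization and 0.18 with lowess, and between 0.18 and 0.37 over the 12 alternatives. It stayed above that of all genes in each, by 0.12 to 0.24. The 13 genes at least 1.5-fold higher in DBA/1 became 5 with median centring, 7 with quantile normalization, 6 with lowess and 7 with log2(signal + 32). The shares of all genes so called were 8.72%, 9.76%, 9.80% and 9.23% in that order, against 11.8% as deposited. Members at least 1.5-fold higher in C57BL/6 went from 0 to 1 under each of the 3 scalings, against 8.22%, 7.24% and 7.15% of all genes. When every probe set was counted, they were 2 of 104, against 6.75% of all probe sets. Large minus small median was -0.07 and reversed to 0.015 without _x_at, _s_at and _a_at probe sets, which leaves 34 large and 18 small subunit genes. The pooled median of the 6 other lists, biogenesis regulators included, moved from -0.02 to -0.12 with median centring. The cause was not tested. Among the 38 members named by rule, 395 of the 401 alternative values moved by no more than 0.31, and 6 by more. The 0.31 is the probe set spread over all genes, wider than the 0.24 of members. Many of these values could not have moved past it. All members were over the floor on both arrays, so the floors and stricter filters left their ratios unchanged. Median centring shifts every gene by the same 0.10. The count is therefore no measure of stability. Among these 38, changes of sign were found only for genes not past 1.5-fold. They fell on 3 or 4 genes under 5 of the alternatives, such as Mrpl10 and Mrpl24 under the scalings. Over all 74 members, the 63 above 0 became 54 with median centring and 55 with quantile normalization or lowess. The shares of all genes above 0 were 49.7%, 52.2% and 52.4% in that order, against 60.6% as deposited. Subunits by structure and the omission of genes of mixed sign were added after seeing the data. No paired analysis was possible because each strain has 1 array, and no replicate could be left out.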
